A study of Mus musculus with 9 samples.

Results

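Oxidative phosphorylation is carried out by 5 protein complexes of the inner mitochondrial membrane, and the genes that encode their subunits in the nucleus were examined here in E16.5 embryonic mouse lenses. The genes were taken from the deposited expression table by symbol, as the *Ndufa*, *Ndufb*, *Ndufc*, *Ndufs* and *Ndufv* genes, *Sdha* to *Sdhd*, the *Uqcr* genes, the lettered *Cox* genes numbered 4 to 8, the *Atp5* genes and *Atpif1*. Of 22013 entries in the table, 84 matched, and 81 of these reached a value of 1 or more in 2 or more of the 9 libraries. The other three, *Cox7a1* and the pseudogene entries *Atp5k-ps2* and *Atp5l-ps2*, stayed below 1 in every library. The 81 genes were 35 of complex I, 4 of complex II, 8 of complex III, 14 of complex IV, 17 of complex V, and 3 entries that belong to no complex (*Atp5l-ps1*, *Atp5l2-ps* and *Atp5sl*).

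RNA was sequenced from 3 groups of 3 libraries, each made from 8 pooled lenses. Control lenses were heterozygous for both knockout alleles (*Mafg*+/-:*Mafk*+/-), compound KO lenses lacked *Mafg* and kept 1 allele of *Mafk* (*Mafg*-/-:*Mafk*+/-), and double KO lenses lacked both (*Mafg*-/-:*Mafk*-/-). Mafg and Mafk are small Maf proteins, DNA-binding factors without an activation domain of their own that pair with CNC and Bach factors. The alleles were germline knockouts, kept on an ICR background and not limited to the lens, and all 3 groups carried at least 1 knockout allele of each gene. No wild-type library was part of the comparison.

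Complex I (NADH dehydrogenase) and complex II (succinate dehydrogenase) pass electrons to ubiquinone, complex III hands them to cytochrome *c*, and complex IV (cytochrome *c* oxidase) gives them to oxygen. Complexes I, III and IV pump protons, and complex V, the ATP synthase, makes ATP from the gradient. Complex II is encoded by nuclear genes alone, while the other complexes also hold subunits from the mitochondrial genome. In the lens, mitochondria are kept in the epithelium and in young fiber cells at the surface and are degraded as fiber cells mature, so that the core of the lens depends on glycolysis.

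Many promoters of these genes are known to be bound by NRF1, a factor that controls nuclear genes for mitochondrial proteins, while small Maf proteins with a CNC partner bind antioxidant response elements. Both motifs were therefore searched on both strands in the 250 bases before each start site of the RefSeq promoter table (mouse build GRCm38.p6), which held 64 of the 81 genes. An NRF1-type motif, GCGCNTGCG, lay before 17 of the 64 (26.56%), and before 5.88% of all 27025 genes in the table. The antioxidant response element was written as TGACNNNGC and lay before 6 of the 64 (9.38%) and before 11.52% of all genes. A stretch of 30 bases is shown for *Atpif1*, the gene the results turn on, for both complex II genes with a match, for the complex IV gene with a match and for *Ndufs5*, the gene with a match to both motifs, read 5′ to 3′ on the strand of the gene with the matched letters in capitals, which may show the reverse complement of the motif.
Atpif1, complex V, NRF1-type: gaccgttctgCGCAAGCGCagcctcacgta
Sdha, complex II, NRF1-type: gtttacagggCGCAGGCGCaccaccactca
Sdhd, complex II, NRF1-type: cgctggggtgCGCACGCGCggtggcagcgc
Cox6a1, complex IV, NRF1-type: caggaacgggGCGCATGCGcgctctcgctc
Ndufs5, complex I, NRF1-type: ctgcttgctgCGCAGGCGCagacccgctgt
Ndufs5, complex I, antioxidant response element: ttctcgagtgTGACCTTGCtcaagtagcac
In the same build these stretches are chr4:132535535-132535564 for *Atpif1*, chr13:74350318-74350347 for *Sdha*, chr9:50603908-50603937 for *Sdhd*, chr5:115349101-115349130 for *Cox6a1*, and chr4:123718264-123718293 and chr4:123718395-123718424 for *Ndufs5*, all on the minus strand. The genes with a match to the antioxidant response element were *Ndufa1*, *Ndufa7*, *Ndufa9*, *Ndufs5*, *Ndufv2* and *Atp5o*.

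All levels are given as normalized CPM, which the authors derived from counts relative to the library with a composition factor and rounded to 0.1. They describe RNA of whole lenses, in which fewer cells of a type and less RNA per cell cannot be told apart. *Mafg* was at 112.9 to 134.5 in control libraries, 10.1 to 24.1 in compound KO and 21.2 to 26.2 in double KO libraries, and *Mafk* was at 5.2 to 6.3, 4.3 to 5.3 and 0.0 to 0.6. All 7 lens fiber and all 5 lens epithelium markers were found. Compound KO replicate 1 stood apart from the other 8 libraries. Its values added up to 728036, against 977149 to 1131184 in the others, its lens fiber markers summed to 38270.0, against 75345.5 to 124303.9, and its skeletal muscle, mesenchyme, neural retina and pigment epithelium markers summed to 433.3, 2279.9, 919.6 and 685.3, against at most 102.2, 357.9, 218.0 and 32.4 elsewhere. The medians of the comparisons with compound KO lenses, and the genes that differed most in them, are given with and without it.

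In control lenses the nuclear subunit genes of the 5 complexes together held 0.572% ± 0.0098 of the total (SD, n = 3). Entries without a symbol, which the symbol patterns could not match, held 31.5% to 32.4% of the total in control libraries. Across all libraries this share ran from 25.0% in compound KO replicate 1 to 35.5% in double KO replicate 3. Whether such entries hold reads of the subunit genes was not tested. Compared per kilobase of the GENCODE canonical transcript, the median control level was 41.4 for the 35 genes of complex I, 24.4 for the 4 of complex II, 53.6 for the 8 of complex III, 93.5 for the 14 of complex IV, and 80.4 for 15 genes of complex V whose transcript was matched. *Atp5b*, the catalytic beta subunit of the ATP synthase, was highest at 535 per kilobase, followed by *Ndufa1*, a small accessory subunit of complex I, at 398. At the low end were *Cox6a2*, the heart and muscle isoform of a complex IV subunit, at 0.74, *Ndufa4l2* at 1.72, *Ndufs8* at 3.76, *Sdhc* at 3.91 and *Sdhb* at 5.0 per kilobase. The 13 subunits encoded by mitochondrial DNA had a median of 1875 per kilobase and ranged from 16.6 for *mt-Nd6* to 4454 for *mt-Co1*, and *mt-Nd6* and *mt-Nd3* (267) lay below *Atp5b*. The RNAs of the 4 complex II subunits, which are present in equal numbers in the complex, spanned a range from 3.91 (*Sdhc*) to 46.0 (*Sdhd*) per kilobase.

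**Figure D1:**
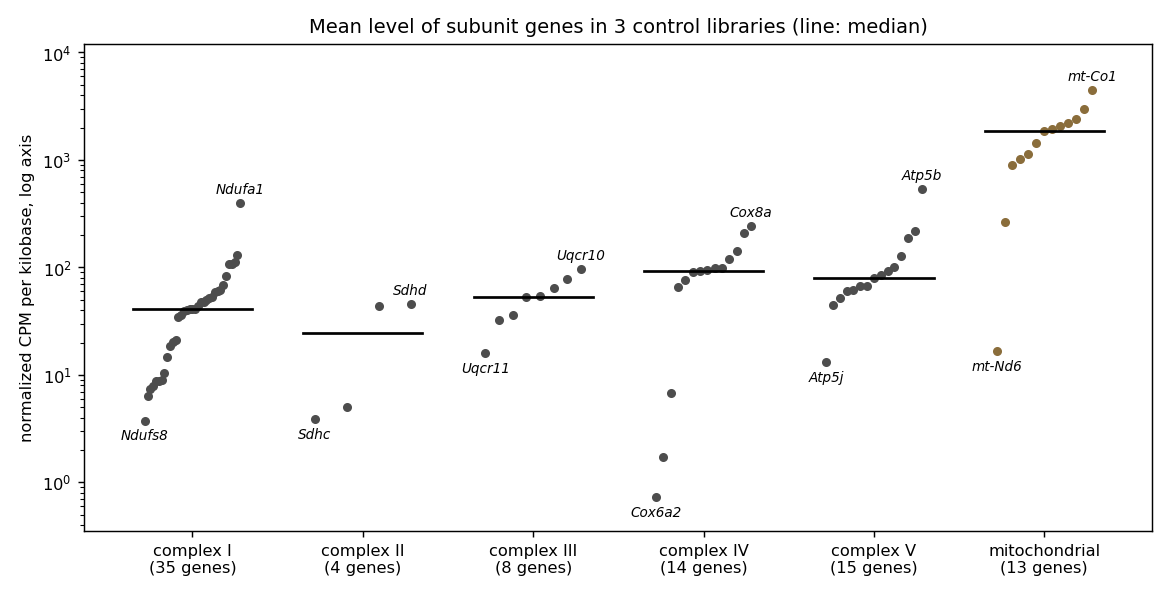
Mean level of each subunit gene in the 3 control libraries, as normalized CPM per kilobase of transcript on a log axis, by complex and for the subunits encoded by mitochondrial DNA. Each point is 1 gene and the line is the median, which is 41.4, 24.4, 53.6, 93.5 and 80.4 for complexes I to V and 1875 for the mitochondrial genes.

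For the subunits that exist as tissue isoforms, the ubiquitous form had the higher level per kilobase. *Cox6a1* was at 207 and *Cox6a2* at 0.74 per kilobase in control lenses, and *Cox6b1* was at 141 and *Cox6b2*, the testis isoform, at 6.83. *Ndufa4*, a subunit of complex IV despite its name, was at 94.5 and its relative *Ndufa4l2*, known as a hypoxia-induced gene, at 1.72. Across the 9 libraries *Cox6a2* had values of 0.0 to 1.8, and the muscle isoform *Cox7a1* had values of 0.0 to 0.9. *Ndufa4l2* was at 1.4 to 3.7 in 8 libraries and at 25.7 in compound KO replicate 1. *Cox4i2*, another hypoxia-linked isoform, which the symbol patterns leave out, was likewise at 0.5 to 1.7 in 8 libraries and at 12.2 in that library. The 3 genes for the c subunit of the ATP synthase, which encode the same mature protein, were all expressed. *Atp5g3* lay highest per kilobase, at 128 in control lenses, and *Atp5g1* and *Atp5g2* were at 52.5 and 61.0.

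The values of most subunit genes lay close together. Among the 73 genes of the 5 complexes with a mean of at least 10, the coefficient of variation within a group had a median of 7.72% in control, 13.7% in compound KO and 5.68% in double KO libraries. Across all 9 libraries, the ratio of the highest to the lowest value stayed under 1.5 for 33 of the 78 genes and under 2 for 63. *Cox6b1*, which links the monomers of the complex IV dimer, spanned 88.6 to 95, and *Sdhd*, a membrane anchor of complex II, spanned 53.9 to 60.7. The ratio was at least 3 in 5 genes, which were *Ndufa4l2*, *Sdhb*, *Uqcrq*, *Ndufb10* and *Sdhc*. Another 2 genes, *Cox6a2* and *Atp5s*, were listed at 0 in at least 1 library.

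Summed over the members of each complex, the level in double KO lenses differed from that in control lenses by less than the spread between replicates for complexes I, IV and V. The sum of the complex I genes was 1795 ± 103 in control and 1793 ± 86.5 in double KO lenses (SD, n = 3). For complex IV it was 907 ± 24.6 and 884 ± 24.8, and for complex V 2649 ± 78.2 and 2580 ± 102. The complex III sum was 570.6, 610.2 and 612.2 in the control libraries and 568.3, 556.1 and 561.7 in the double KO libraries. All 3 double KO libraries were thus below the lowest control library as deposited, whereas the groups overlapped per library total. The complex II sum was 221.7, 218.5 and 234.6 in control, 316.2, 343.7 and 224.7 in double KO, and 222.3, 221.3 and 318.4 in compound KO libraries, and the 3 high libraries are those in which *Sdhb* was high. The complex I sum was 1315.2, 1725.6 and 1690.9 in the compound KO libraries, of which the first lay below all other libraries.

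**Figure D2:**
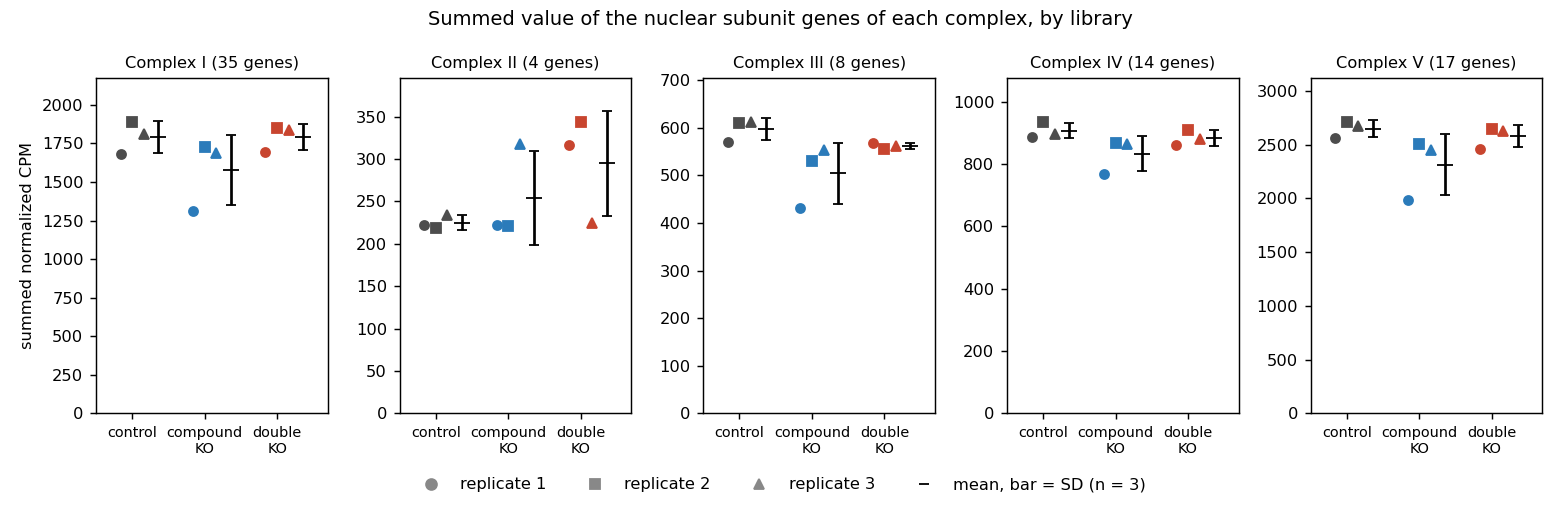
Summed normalized CPM of the nuclear subunit genes of each complex in the 9 libraries, with the mean and SD of each group (n = 3). Control and double KO libraries overlap for complexes I, II, IV and V, compound KO replicate 1 is lowest for complexes I, III, IV and V, and the 3 highest values of complex II are 316.2, 318.4 and 343.7.

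Between double KO and control lenses, the question is whether loss of both small Maf genes changes the RNA of these complexes. Of the 81 genes, 1 passed the test, and it encodes a regulator rather than a structural subunit. *Atpif1*, which encodes the inhibitor that blocks ATP hydrolysis by the ATP synthase, rose 1.55-fold. The 81 genes had a median log2 fold change of -0.016, beside 0.011 over all 14122 entries tested, and 33 were higher and 48 lower. A gene was called where its change was at least 1.5-fold and its adjusted p 0.05 or less (limma on log2 of the value plus 1, Benjamini-Hochberg over all entries), and 1 of the 81 was called, and 51 of the 14122 entries (0.361%). At an unadjusted p of at most 0.05, 4 of the genes were higher and 1 was lower, which is 5 of 81 beside 9.97% of all entries. Among the 78 genes of complexes I to V, 3 were higher and 1 was lower. The remaining gene was *Atp5sl*, which belongs to no complex, at 10.4, 10.3 and 10.2 in control and 11.7, 12.4 and 12.6 in double KO libraries. For 61 of the 81 genes the 95% interval of the difference lay wholly within 1.5-fold in either direction, as it did for 62% of all entries. There was no overlap between control and double KO libraries for 7 genes that were higher and 5 that were lower in double KO, against 7.78% and 8.04% of all entries in these directions. The median log2 fold change was -0.017 for complex I, 0.25 for complex II, -0.074 for complex III, -0.0027 for complex IV and -0.0068 for complex V. With values scaled to the library total alone, 55 of the 81 genes were higher, and the medians of complexes I to V became 0.052, 0.31, -0.005, 0.048 and 0.063. The median over all entries moved as well, from 0.011 to 0.073. Relative to it, the median of the 81 genes lay at -0.027 as deposited and at -0.021 in this scaling.

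**Figure D3:**
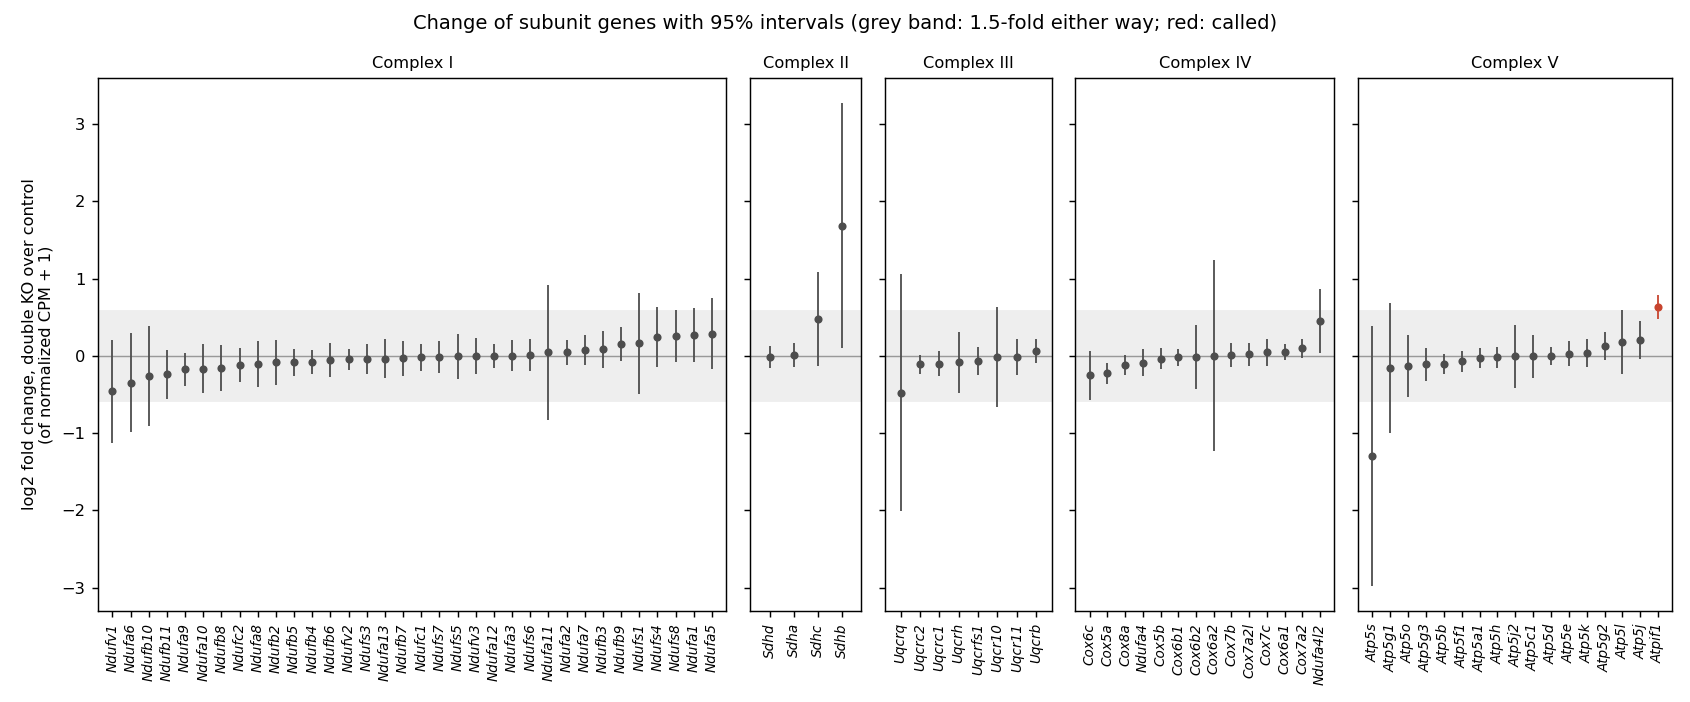
Log2 fold change of double KO over control lenses for subunit genes of complexes I to V, with its 95% interval from limma, sorted within each complex. Points above 0 are higher in double KO, the grey band marks a 1.5-fold change either way, and *Atpif1*, at 0.63, is the 1 gene called (red), while *Sdhb*, *Atp5s*, *Uqcrq* and *Cox6a2* have the widest intervals.

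*Atpif1* lies on chromosome 4 (chr4:132257215-132262823, minus strand, GRCm39), where it is annotated as *Atp5if1*. Its values were 41.6, 46.4 and 45.5 in the control libraries, 58.7, 60.7 and 56.0 in compound KO and 67.1, 70.3 and 71.1 in double KO libraries. As deposited, no group overlapped with another, and compound KO lenses lay between the other groups. Double KO exceeded control lenses by 0.63 ± 0.06 (SE) on the log2 scale, with a 95% interval of 0.48 to 0.78 and an adjusted p of 0.0262 (limma). The call did not hold without any single library, control or double KO, since the adjusted p was then between 0.0612 and 0.118 (limma), while the log2 fold change stayed between 0.59 and 0.66. In compound KO against control lenses, the log2 difference was 0.39 ± 0.08 with an adjusted p of 0.481 (limma), and from compound to double KO lenses it was 0.25 ± 0.07 with an adjusted p of 0.665 (limma). These comparisons share libraries and are given side by side only. Scaled to the library total alone, the differences from control were 0.70 in double KO and 0.64 in compound KO lenses, and the difference between the knockouts shrank to 0.061. Per 1000000 of the total, *Atpif1* was at 80.6, 61.5 and 54.7 in compound KO and 68.7, 68.5 and 65.8 in double KO libraries. The knockout groups thus overlapped in this scaling, and both lay above the controls, at 40.1 to 42.5.

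Atpif1 is also known for a role in heme synthesis of developing red cells, and the summed level of red cell markers was likewise higher by value in double KO lenses, while none of these markers had an adjusted p of at most 0.05 (the lowest was 0.284, limma). The 7 erythroid markers, all above 0 in every library, summed to 1169.7 to 1639.3 in control, 1425.1 to 2832.1 in compound KO and 2335.0 to 3866.6 in double KO libraries. The 11 skeletal muscle markers summed to 3.5 to 6.4 in control, 24.5 to 433.3 in compound KO and 32.0 to 102.2 in double KO libraries. All 10 muscle markers tested between double KO and control lenses were higher by value in double KO lenses. Of these, 1 had an adjusted p of at most 0.05 (0.0039, limma). *Myod1* had the largest log2 difference, 3.01, and did not follow the rest of the list. It was at 2.6, 6.2 and 7.8 in compound KO and 9.2, 8.3 and 6.2 in double KO libraries. The other muscle markers were highest in compound KO replicate 1, such as *Acta1* at 88.7. Of the muscle list, *Myod1*, *Ckm*, *Myh8*, *Tnnc2* and *Tnni2* were at 0.0 in at least 1 control library. Markers of other tissues were also mostly higher by value in double KO than in control lenses. These were 6 of 7 for mesenchyme, 5 of 6 for neural retina, 3 of 4 for pigment epithelium and 4 of 5 for endothelium. None of them reached an unadjusted p of 0.05 (limma). The part of any of these tissues in the *Atpif1* difference was not tested.

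The structural subunits of the ATP synthase did not pass the test. *Atp5a1* and *Atp5b* encode the alpha and beta subunits of its catalytic head. *Atp5b* had values of 994.1, 1064.1 and 1035.5 in control, 655.3, 901.9 and 929.8 in compound KO and 926.6, 998.1 and 953.1 in double KO libraries. The control and double KO values overlapped, and the difference was -0.10 on the log2 scale with a 95% interval of -0.23 to 0.02. *Atp5a1* was at 470.7, 462.6 and 445.7 in control and 429.1, 472.1 and 456.8 in double KO libraries, a difference of -0.02 with an interval of -0.15 to 0.10. The c subunit genes differed by -0.15 ± 0.34 (*Atp5g1*), 0.13 ± 0.07 (*Atp5g2*) and -0.11 ± 0.09 (*Atp5g3*) on the log2 scale (SE). The largest fall by value in complex V was that of *Atp5s*, known as coupling factor B, which was at 7.4, 6.0 and 5.9 in control, 6.0, 8.0 and 5.5 in compound KO, and 4.0 and 4.5 in double KO libraries and was listed at 0 in double KO replicate 3. Its adjusted p was 0.619 (limma), with a log2 difference of -1.29 that became -0.50 without that library.

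**Figure D4:**
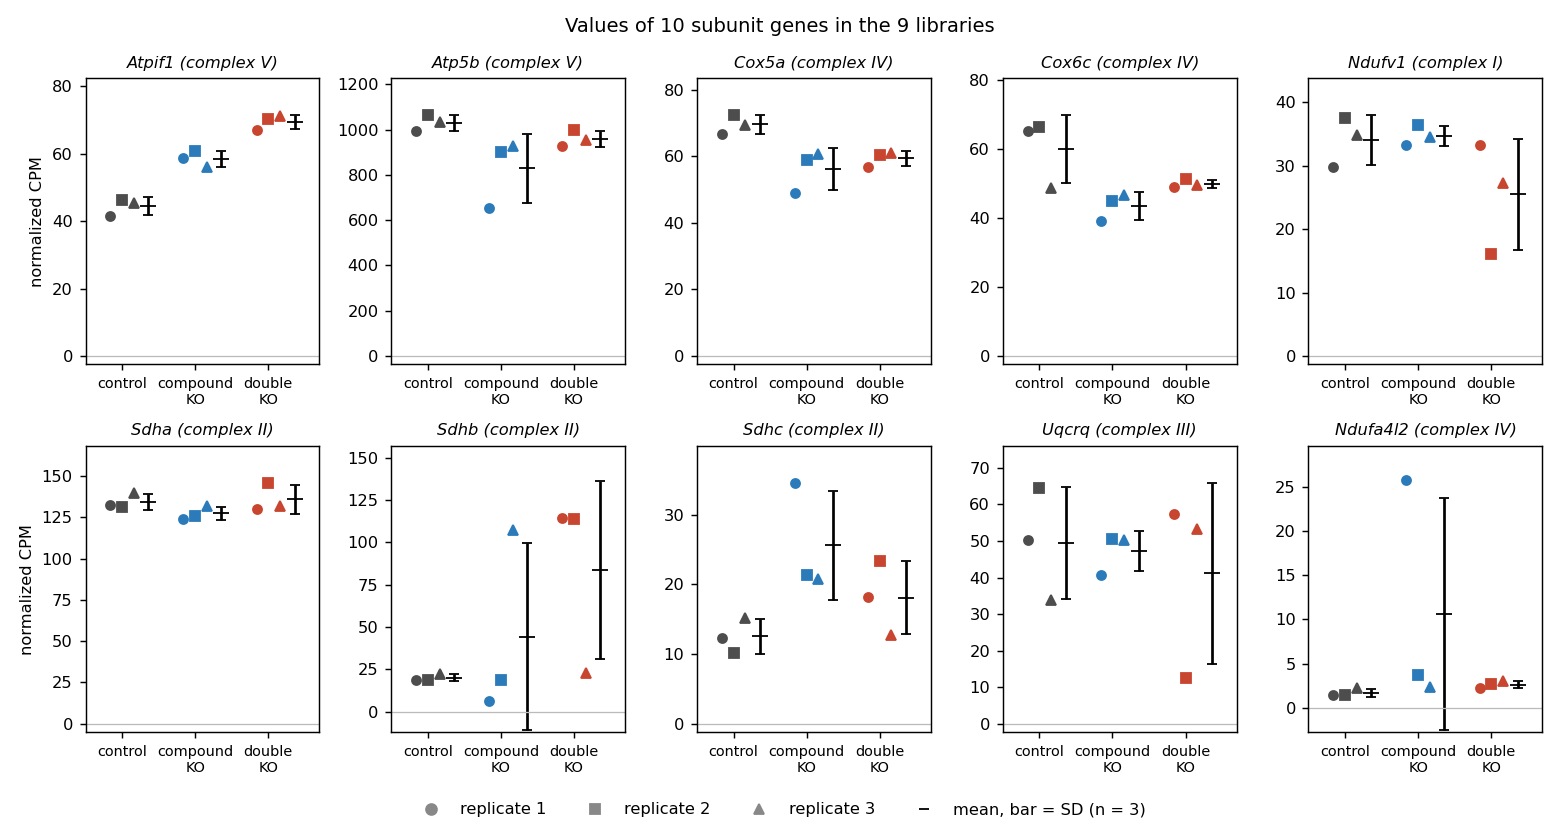
Normalized CPM of 10 subunit genes in each of the 9 libraries, with the mean and SD of each group (n = 3) beside the points. In these values as deposited, the groups do not overlap for *Atpif1*, and *Cox5a* is lower in all 6 knockout libraries than in the controls. *Sdhb* is at least 107.5 in 3 libraries and at most 22.8 in the other 6.

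Complex II had 2 stable and 2 variable genes. *Sdha*, the flavoprotein that oxidizes succinate, was at 132.3, 131.0 and 139.9 in control, 124.2, 125.9 and 131.9 in compound KO and 129.8, 146.0 and 132.0 in double KO libraries. Its difference between double KO and control lenses was 0.01 on the log2 scale, with a 95% interval of -0.14 to 0.17, and that of *Sdhd* was -0.02 with an interval of -0.16 to 0.13. *Sdhb*, the iron-sulfur subunit (chr4:140688502-140709380, GRCm39), was at 19.0, 19.0 and 22.5 in control, 6.5, 18.6 and 107.5 in compound KO and 114.3, 113.7 and 22.8 in double KO libraries. Its values thus fell on separate levels within both knockout groups, and double KO replicate 3 lay just above the highest control library. The table was built from transcript-level counts, and how reads were assigned to transcripts at this locus in each library was not tested. Double KO exceeded control lenses by 1.69 ± 0.64 (SE) on the log2 scale, with an interval of 0.10 to 3.28 and an adjusted p of 0.472 (limma). Leaving out double KO replicate 3 gave 2.45, with an adjusted p of 0.00796 (limma), while leaving out replicate 1 or 2 of this group gave 1.31, with an adjusted p of 0.696 or 0.644 (limma). *Sdhc*, a membrane anchor (chr1:170954732-170978223, GRCm39), was at 12.3, 10.1 and 15.2 in control, 34.6, 21.4 and 20.8 in compound KO and 18.2, 23.3 and 12.8 in double KO libraries, and its difference between double KO and control lenses was 0.48 ± 0.25 with an adjusted p of 0.612 (limma).

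In complex IV, *Cox5a*, a subunit on the matrix side of the complex (chr9:57428456-57440678, GRCm39), was at 66.6, 72.5 and 69.5 in control, 49.1, 58.9 and 60.7 in compound KO and 56.8, 60.3 and 60.9 in double KO libraries. As deposited, all 6 knockout libraries lay below the 3 controls. The difference between double KO and control lenses was -0.23 ± 0.06 on the log2 scale (SE), with an adjusted p of 0.278 (limma), and its 95% interval of -0.36 to -0.09 lay within 1.5-fold. Per library total this difference was -0.16, and that between compound KO and control lenses was -0.053. *Cox6c*, a small membrane-spanning subunit, had the largest fall by value, with 65.2, 66.2 and 48.7 in control, 39.0, 44.8 and 46.6 in compound KO and 48.9, 51.1 and 49.4 in double KO libraries. Control replicate 3 lay just below all 3 double KO libraries, while the other controls lay above them. The difference was -0.25 ± 0.13 with an adjusted p of 0.599 (limma). *Ndufa4l2* was at 1.4, 1.4 and 2.2 in control, 25.7, 3.7 and 2.4 in compound KO and 2.2, 2.7 and 3.0 in double KO libraries. Its log2 difference between double KO and control lenses was 0.45 ± 0.17, with an adjusted p of 0.459 (limma). The ubiquitous isoforms differed by 0.05 (*Cox6a1*), -0.02 (*Cox6b1*), 0.10 (*Cox7a2*), -0.11 (*Cox8a*) and -0.09 (*Ndufa4*) on the log2 scale, each with an interval within 1.5-fold.

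Complex I, with 35 genes, had none at an unadjusted p of at most 0.05 between double KO and control lenses, and its lowest adjusted p was 0.585 (limma). The interval of the difference lay within 1.5-fold for 25 of the 35 genes. Its core subunits include those that carry the flavin and iron-sulfur centers. *Ndufv1*, which binds NADH, was at 29.8, 37.6 and 34.9 in control, 33.2, 36.4 and 34.5 in compound KO and 33.2, 16.0 and 27.3 in double KO libraries. Its log2 difference of -0.46 ± 0.27 (SE) was the largest fall by value in the complex, and double KO replicate 2 held its lowest value. *Ndufs1*, which holds several iron-sulfur clusters, was at 32.8, 21.7 and 31.6 in control and 23.1, 42.4 and 32.5 in double KO libraries. It overlapped widely between the groups, with a difference of 0.16 ± 0.26. The largest rise by value was that of *Ndufa5*, an accessory subunit of the peripheral arm, at 19.2, 18.5 and 18.6 in control and 31.2, 19.4 and 20.3 in double KO libraries, with a difference of 0.29 ± 0.19 and 1 high library.

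No complex III gene reached an unadjusted p of 0.05 either. *Uqcrc1*, a core subunit, was at 81.5, 93.3 and 86.8 in control and 84.9, 77.9 and 81.2 in double KO libraries, and *Uqcrfs1*, the Rieske iron-sulfur protein, was at 74.5, 83.2 and 80.4 and at 75.9, 81.3 and 70.2. The differences were -0.10 ± 0.07 and -0.07 ± 0.07 on the log2 scale (SE), with intervals within 1.5-fold. *Uqcrq*, a small accessory subunit, was at 50.2, 64.4 and 33.9 in control, 40.8, 50.6 and 50.3 in compound KO and 57.5, 12.6 and 53.4 in double KO libraries. Its difference of -0.48 ± 0.62 was the largest fall by value in the complex, and double KO replicate 2 held its lowest value. *Uqcrb*, which lies beside cytochrome *b*, was the 1 gene of 8 that was higher in double KO lenses by value, by 0.06 ± 0.06, while 4 of the 8 were higher per library total.

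The 6 genes with an antioxidant response element in the searched window overlapped between control and double KO libraries. Their log2 fold changes were 0.28 (*Ndufa1*), 0.08 (*Ndufa7*), -0.17 (*Ndufa9*), -0.0017 (*Ndufs5*), -0.05 (*Ndufv2*) and -0.13 (*Atp5o*), and their adjusted p lay between 0.585 and 0.999 (limma). The *Atpif1* window held the NRF1-type letters shown for it and no match to the other motif.

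Between compound KO and control lenses, which differ in *Mafg* alone, the subunit genes were lower by value, but none passed the test and the direction depended on the scaling. The median log2 fold change was -0.14, beside 0.016 over all 14348 entries tested, with 16 of the 81 genes higher and 65 lower. No subunit gene and no other entry (0% of all) was called. At an unadjusted p of at most 0.05, 2 subunit genes were higher and 8 lower, 10 of 81 beside 9.3% of all entries. Groups did not overlap for 4 genes that were higher and 20 that were lower in compound KO lenses, beside 12.2% and 11.7% of all entries. The interval lay within 1.5-fold for 47 of the 81 genes, beside 39.9% of all entries. Without compound KO replicate 1, the median was -0.052 with 28 of 80 genes tested higher, beside a median of 0.010 over all entries. Of the 81 genes, 5 that were higher and 20 that were lower then did not overlap, beside 16.2% and 15.2% of all entries. Scaled to the library total alone, the median over all entries shifted from 0.016 to 0.24 and that of the subunit genes became 0.11, with 59 of 81 higher, while relative to the median of all entries the subunit genes lay at -0.16 as deposited and at -0.14 in this scaling.

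Compound KO replicate 1 lay apart for these genes in both scalings. As deposited, it held the lowest of 9 values for 54 of the 78 genes of the 5 complexes, with a median log2 difference from the control mean of -0.34. Per library total, it held the highest of 9 values for 40 of them, with a median of 0.21. In the other 8 libraries the medians ran from -0.057 to 0.045 as deposited and from -0.023 to 0.097 per total.

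**Figure D5:**
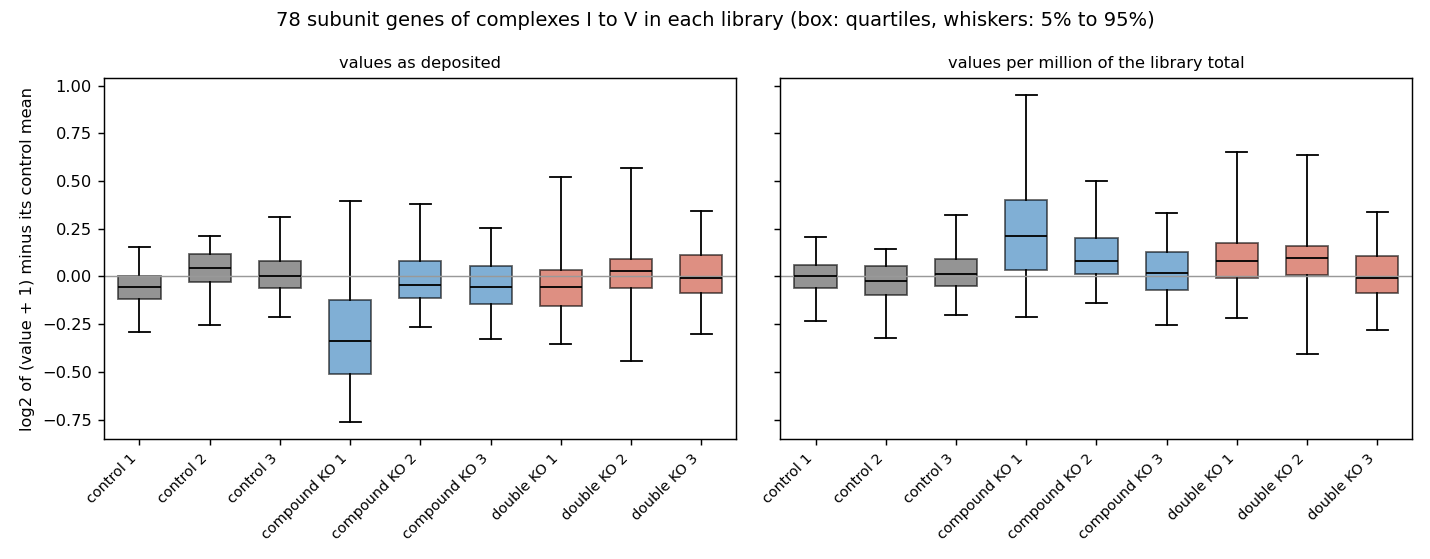
Log2 difference of each of the 78 subunit genes from its control mean in each library, with values as deposited (left) and per library total (right). Boxes span the quartiles with the median and whiskers reach from 5% to 95% of the genes, and compound KO replicate 1 has the lowest median as deposited (-0.34) and the highest per total (0.21).

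Of single genes in compound KO lenses, *Sdhc* differed most among those at an unadjusted p of at most 0.05. Its 3 compound KO libraries lay above the 3 controls, by 0.95 ± 0.25 on the log2 scale (SE) with an adjusted p of 0.481 (limma), and by 0.72 without compound KO replicate 1. *Cox6c* differed by -0.45 ± 0.15 and *Uqcrc2*, a core subunit of complex III at 176.2, 185.5 and 181.5 in control and 121.6, 154.4 and 155.4 in compound KO libraries, by -0.34 ± 0.11. Both had the same adjusted p of 0.481 (limma), kept their sign without that library, at -0.37 and -0.22, and shrank to -0.20 and -0.083 per library total. *Atp5c1*, *Atp5f1*, *Cox5a*, *Ndufa10*, *Ndufb2* and *Ndufb5* were the other genes lower at this level, with log2 differences of -0.33, -0.19, -0.31, -0.40, -0.30 and -0.39. Without compound KO replicate 1 these were -0.28, -0.17, -0.21, -0.31, -0.28 and -0.25, and per library total they were -0.072, 0.070, -0.053, -0.15, -0.056 and -0.14.

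When double KO lenses were set against compound KO lenses, which differ from them in *Mafk* on a *Mafg*-null background, no subunit gene was called, and 2 of 14402 entries were (0.0139%). The median log2 fold change was 0.15, beside -0.0053 over all entries, and 71 of the 81 genes were higher. At an unadjusted p of at most 0.05 were *Atpif1*, at 0.25, and *Atp5c1*, the gamma subunit that turns within the catalytic head, at 0.32 ± 0.12 (SE), which is 2 of 81 beside 4.87% of all entries. Their adjusted p was 0.665 in both cases (limma). *Atp5c1* was at 101.9, 120.8 and 108.2 in control, 82.3, 96.5 and 84.4 in compound KO and 97.6, 107.9 and 125.0 in double KO libraries, so that the compound KO libraries lay below both other groups as deposited. Per library total the difference between the knockouts was 0.14, and compound KO replicate 1 lay above the controls, at 113.0 per 1000000 against 98.3 to 106.8. Groups did not overlap for 13 genes that were higher and 1 that was lower in double KO, beside 8.17% and 7.39% of all entries, and the interval lay within 1.5-fold for 50 of the 81, beside 42% of all entries. Without compound KO replicate 1 the median was 0.048, beside -0.0016 over all entries, with 56 of 80 genes tested higher. Per library total the median of the 81 genes was -0.035, with 27 higher, and relative to the median of all entries it was 0.15 as deposited and 0.14 in this scaling.

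The 13 subunits encoded by mitochondrial DNA summed to 21733 to 23754 in control, 17419.8 to 20573.7 in compound KO and 20249 to 22217 in double KO libraries. None was called in any comparison, and none had an adjusted p of at most 0.05 (limma). All 13 were lower by value in double KO than in control lenses, with log2 differences from -0.28 to -0.03 and a median of -0.098, and 3 of them did not overlap between the groups, beside 8.04% of all entries in this direction. Per library total the median was -0.028 and 5 of the 13 were higher. In compound KO against control lenses all 13 were lower by value as deposited, with a median of -0.20 that was -0.15, with none higher, without compound KO replicate 1, while 12 of 13 were higher per library total, with a median of 0.057. As deposited, 9 of the 13 did not overlap between these groups, beside 11.7% of all entries in this direction. An unadjusted p of at most 0.05 (limma) was reached by 1 of the 13, beside 9.3% of all entries. *mt-Atp6*, a membrane subunit of the ATP synthase, was at 300.0 in compound KO replicate 1 and at 1380.3 to 1732.7 in the other 8 libraries, whereas *mt-Atp8*, whose reading frame overlaps it on the same transcript, was at 393.6 there and at 299.3 to 480.2 elsewhere.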

How the data were processed

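RNA-seq of E16.5 mouse lenses gave 9 libraries of 8 lenses, 3 for each genotype as labelled. The authors trimmed strand-specific paired-end reads with Trimmomatic, used HISAT2 for alignment to mm39, StringTie for transcript-level counts and edgeR for their analysis, and the submitters' processing notes also list Cufflinks. What the authors deposited is a normalized signal, CPM with a composition factor for each library, rounded to 0.1, so the totals of the libraries differ. The depth per library is unknown and no counting error is given, so precision rests on the spread between replicates.

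Since the values are not counts, limma 3.58.1 (R 4.3.3, two-sided moderated test, with a trend over intensity) was run on log2 of the value plus 1 in each comparison separately. Entries entered with a symbol and a value of 1 or more in 2 or more of the 6 libraries. Adjustment (Benjamini-Hochberg) covered all entries tested, and a call needed a change of 1.5-fold or more with an adjusted p no higher than 0.05. Fold changes are on the scale of the value plus 1 and understate those of low genes. The procedure was tested on simulated data. All 81 genes passed the filter in each comparison. The genes and lists were chosen with earlier results of these data known.

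Named genes are those with an adjusted p of at most 0.05, those past 1.5-fold with an unadjusted p of at most 0.05, the largest rise and fall of each complex between double KO and control lenses, core subunits and isoform pairs. A core subunit of the rule is not reported here by itself. Others at an unadjusted p of at most 0.05, the genes with a motif match and the most variable genes were added after their values were seen. Positions and canonical transcript lengths come from GENCODE vM39 on GRCm39, in which 78 of the genes that matched the patterns were found by symbol or synonym. Promoter sequences come from the RefSeq table, and 17 of the 81 genes were not found there. Levels between genes are compared only per kilobase, with 1 transcript length per gene. Python 3.11.15, pandas 2.3.3, numpy 2.4.6 and matplotlib 3.10.9 were used. Alternatives were other scalings, filters and pseudocounts, a block for the replicate number, 1 fit of all 9 libraries, summing of entries that share a symbol, and each replicate left out in turn. Leaving out the pseudogenes and *Atp5sl* was chosen after seeing the data. The authors' own comparisons were not used.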

Additional observations from a re-analysis of the deposited data

How the results depend on the processing

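The log2 fold changes followed through the alternatives (*Atpif1* in all 3 comparisons, *Sdhb*, *Cox5a*, *Ndufa4l2* and *Atp5s* between double KO and control lenses, *Sdhc*, *Cox6c* and *Uqcrc2* between compound KO and control lenses, *Atp5c1* between the knockouts) kept their sign in each of them. The call of *Atpif1* between double KO and control lenses held in 7 of 14 alternatives, with an adjusted p from 0.0106 to 0.167 (limma) and a log2 fold change from 0.59 to 0.70. The number of genes of the set called in this comparison was 1 (*Atpif1*). It was 0 to 1 when each replicate was left out in turn, the 1 being *Sdhb* without double KO replicate 3. With the replicate number as a block it was 0, and *Atpif1* had an adjusted p of 0.167 (limma). The numbers were not taken to pair the samples, since same-numbered libraries correlated by -0.106 to 0.216 after removal of group means. In double KO and control lenses each of 6 libraries correlated best with its own number (0.057 to 0.077), as a hint from the data, and in the other comparisons 2 of 6 and 3 of 6 did. Over all entries the block moved the calls between double KO and control lenses from 51 to 10, and a fit of all 9 libraries gave 21.

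With values scaled to the library total alone, the median log2 fold change of the subunit genes moved from -0.14 to 0.11 between compound KO and control lenses and from 0.15 to -0.035 between double and compound KO lenses. When replicates were left out, these medians ran from -0.20 to -0.052 and from 0.048 to 0.21, with the values nearest 0 without compound KO replicate 1, and that between double KO and control lenses ran from -0.037 to 0.015. No subunit gene was called under any alternative in the comparisons with compound KO lenses. The other settings (upper quartile scaling, both filters, a pseudocount of 0.1, summed entries, *Ndufab1*, *Cyc1*, *Cox4i1* and *Cox4i2* added, pseudogenes and *Atp5sl* left out) left the counts of called genes and the medians close to those reported.

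The depth behind a value is not known, so a low value such as that of *Cox6a2* or *Ndufa4l2* cannot be given a counting error. With 3 pools of lenses in a group, the 95% interval between double KO and control lenses reached beyond 1.5-fold for 20 of the 81 genes.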

Other observations

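Genes that build the complexes or act beside them in mitochondria were also examined. Of the assembly factors measured between double KO and control lenses (16 for complex I, 4 for II, 6 for III, 23 for IV and 4 for V), none had an adjusted p of at most 0.05 (limma). The 16 for complex I include *Atp5sl*. *Tmem126b*, an assembly factor of complex I, was at 8.7, 4.7 and 3.8 in control, 9.8, 9.1 and 10.5 in compound KO and 12.1, 11.3 and 12.7 in double KO libraries. All 6 knockout libraries lay above the controls, with a log2 difference of 1.02 ± 0.27 (SE) between double KO and control lenses and an adjusted p of 0.310 (limma). Median log2 fold changes were 0.024, -0.11, 0.033, 0.0030 and -0.0030 for the 5 groups of assembly factors. None of 13 citric acid cycle genes, 16 genes of mitochondrial gene expression and biogenesis, 14 import, porin and carrier genes or 7 mitophagy genes had an adjusted p of at most 0.05 either. The medians of these lists were -0.063, 0.0061, -0.015 and 0.0069, and for the 5 respiratory chain genes that the symbol patterns leave out it was -0.012.

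*Optn*, a receptor that brings damaged mitochondria to the autophagy machinery, was at 54.8, 69.6 and 54.0 in control, 21.5, 36.7 and 35.3 in compound KO and 35.5, 38.5 and 40.3 in double KO libraries. All 6 knockout libraries lay below the controls. The log2 difference was -0.62 ± 0.12 (SE) in double KO lenses, with an adjusted p of 0.178 (limma), and -0.94 ± 0.23 in compound KO lenses, with an adjusted p of 0.481 (limma), which was -0.70 without compound KO replicate 1. *Phb2*, a prohibitin of the inner mitochondrial membrane, was at 8.7, 9.4 and 8.3 in control, 9.2, 12.1 and 11.2 in compound KO and 12.6, 10.8 and 15.0 in double KO libraries, a difference of 0.48 ± 0.13 between double KO and control lenses with an adjusted p of 0.321 (limma). *Dlst*, a subunit of the 2-oxoglutarate dehydrogenase complex, was at 42.8, 54.3 and 59.6 in control, 34.2, 30.6 and 39.1 in compound KO and 2.9, 50.7 and 60.9 in double KO libraries, with 1 double KO library far below the rest.

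The start of *Atpif1* lies 23 bases from that of *Dnajc8*, a gene on the opposite strand (chr4:132262846-132281061, GRCm39). *Dnajc8* was looked at after the *Atpif1* values were seen. It was at 36.6, 32.4 and 27.3 in control, 34.7, 36.0 and 39.5 in compound KO and 38.1, 48.9 and 42.9 in double KO libraries. Its double KO libraries all lay above the controls, with a log2 difference of 0.42 ± 0.14 (SE) and an adjusted p of 0.404 (limma).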
